A study of Rattus norvegicus with 6 samples.

Results

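Aptardi combines a transcriptome reconstructed from RNA-Seq with the DNA sequence and adds transcripts with another 3′-end to it. The 3′-ends described here are those that aptardi placed upstream of the end of the original transcript by less than 1000 bases. For each aptardi transcript of the deposited annotation, the original transcript it was made from (its parent) was read from the transcript name, and the distance between both 3′-ends was taken on the transcript strand. This gave 3024 short ends among 11559 aptardi transcripts. Of the others, 4440 ended 1000 or more bases upstream and 4095 downstream of their parent. The short end closest to the limit lay 998 bases upstream, and the closest excluded end, of Sfxn5, lay 1000 bases upstream.

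PolyA RNA from whole brain was sequenced in 6 libraries, from 3 naïve male rats of each of 2 inbred strains. The SHR/OlaIpcvPrin strain (SHR, the spontaneously hypertensive rat) was set against the BN-Lx/CubPrin strain (BNLx). Neither strain received a treatment, ages are not given in the labels, and all 6 libraries were quantified by the authors with RSEM on the same aptardi modified transcriptome. The comparison asked how the counts of a transcript divide between the short end and the parent end, and whether this differs between strains.

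Most mammalian genes can be cleaved and polyadenylated at more than a single site, and the choice between sites in the last exon sets the length of the 3′ untranslated region. That region carries binding sites for microRNAs and RNA-binding proteins, which act on mRNA stability, localization and translation. Neurons are known for long 3′ untranslated regions, and in the brain ends of different length can send an mRNA to the cell body or to the processes. The annotation holds no coding regions, so for these ends it was not established whether the removed stretch was untranslated.

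The short ends belonged to 2630 parents in 1418 loci and used 1793 distinct positions. Of these positions, 1135 were used by 1 aptardi transcript and 658 by 2 or more, up to 12. The members are therefore not independent of each other. The end lay a median of 426.5 bases upstream of the parent end (quartiles 239 and 686.25, range 101 to 998). The median length of the last exon was 1100 bases for the short transcripts and 1629.5 bases for their parents, and the median transcript had 9 exons. Ends that removed 100 to 199 bases were the most frequent, with 591 members, and ends that removed 900 to 999 bases the least frequent, with 207. An end of another original transcript lay within 100 bases of 173 short ends (5.72%), compared with 9.50% of the ends 1000 or more bases upstream and 31.5% of the downstream ends. A gene symbol came through the parent itself for 666 members and through another transcript of its locus for 714. The remaining 1644 had none, and the symbol was joined from several genes of the locus for 320.

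**Figure D1:**
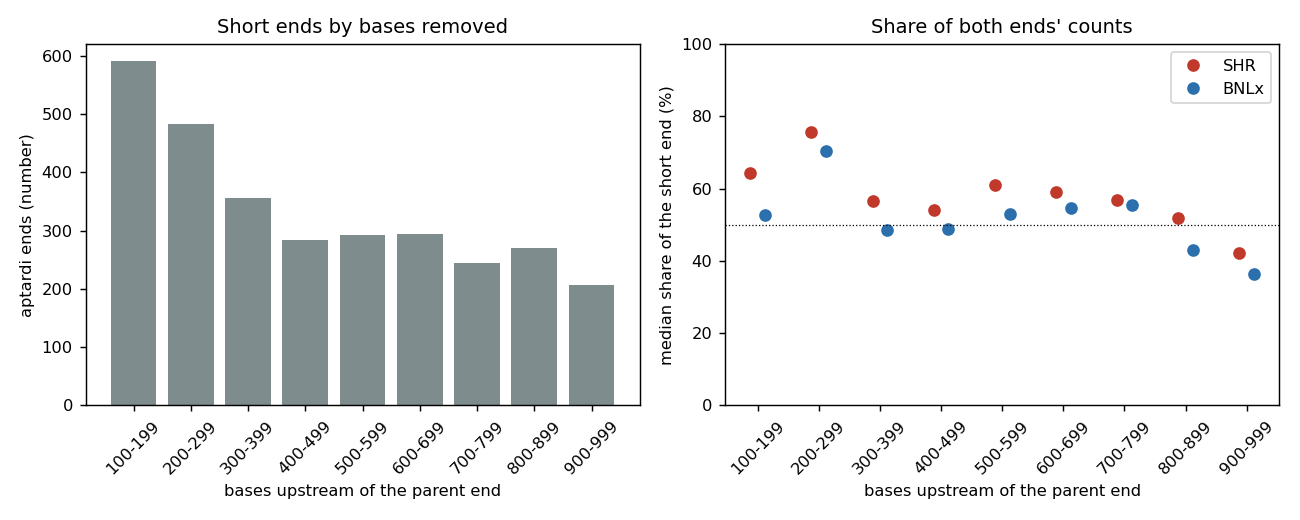
Left, number of short ends (y axis) by the bases removed from the parent (x axis), from 591 at 100 to 199 bases to 207 at 900 to 999 bases. Right, median over members of the share of the short end in the counts of both ends (y axis, %), for SHR and BNLx, in the same bins. Every SHR median lies above the BNLx median of its bin, and both are lowest at 900 to 999 bases. Each point averages the libraries of a strain, which overlap: SHR replicate 1 lay below BNLx replicate 3 in every bin except 600 to 699 bases.

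Total expected counts were between 21745968 and 41333079 in SHR and between 11747048 and 32826625 in BNLx. Short ends took 5.02 to 5.86% of the counts of a library in SHR and 4.89 to 5.53% in BNLx. Within each strain 1 library is called unlike the rest in what follows, BNLx replicate 3 and SHR replicate 1. Their neuron markers were the lowest of their strain: 5 of 8 listed markers carry a name in the annotation, and their CPM (expected counts scaled to library size by TMM) summed to 3755 in SHR replicate 1 against 4836 and 4933 in the other SHR libraries, and to 4052 in BNLx replicate 3 against 5432 and 6162 in the other BNLx libraries. The 3 named of 6 listed oligodendrocyte markers summed to 4129, 2818 and 1836 CPM in SHR replicates 1 to 3 and to 4942, 3171 and 6520 CPM in BNLx replicates 1 to 3. Listed markers of choroid plexus, pituitary, red blood cells, liver and muscle have no named locus in this annotation. Bulk counts cannot tell fewer cells of a type from less RNA per cell. Since 1 of 3 libraries always has the lowest sum, the neuron markers alone do not set these libraries apart. Fits without both of them rest on a chosen subset of libraries.

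Within libraries, more members had the short end called higher than the parent end. A pair was tested where both ends together reached 50 counts in 2 of 3 replicates of at least 1 strain, which 2369 of the 3024 members did. By the quasi-likelihood test of edgeR with a term for each library, the short end was higher for 832 members (35.1%) and the parent end for 536 (22.6%), at an adjusted p of 0.05 or less, and 1001 did not pass. Among all 9227 aptardi pairs, the aptardi end was higher for 36.3% and the parent end for 25.8%, so the share with the aptardi end higher was near that background. This background mixes both directions and includes the members. The values were 32.6 and 30.5% for ends 1000 or more bases upstream, and 41.5 and 22.6% for downstream ends. The median log2 ratio was 0.52 over the members and 0.70 over all pairs. In a fit without these unlike libraries, 211 members passed, 176 of them with the short end higher, and 8.68% of all pairs. Expected counts of overlapping isoforms are estimates, since most reads of a pair fit both ends and only reads in the stretch between them separate the parent.

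The share of the short end is its expected count in percent of the counts of both ends. In 2151 tested members it could be computed in all 6 libraries. The short end held over 50% in every library for 864 of these (40.2%), and under 50% in every library for 673 (31.3%), and the larger end changed between libraries for 614 (28.5%). At least 95% of the counts were on the short end in every library for 209 members and on the parent end for 225. Both ends held at least 10% in every library for 493 members (22.9%). The share of a member ranged over a median of 21.6 percentage points between its lowest and highest library, and over more than 50 points for 407 members (18.9%).

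**Figure D2:**
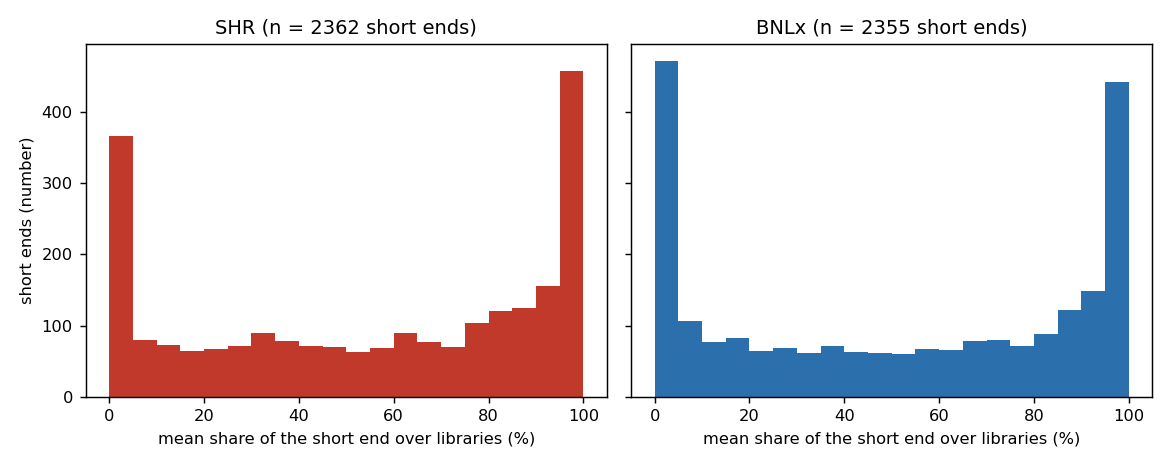
Number of short ends (y axis) by the mean share of the short end over the libraries of a strain (x axis, %, bins of 5 points), SHR left and BNLx right, for tested members with counts in that strain. In both strains the bins at each extreme hold the most members.

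The share was lowest for the longest removed stretches. Over the mean of all libraries, its median was 57.8% for members with 100 to 199 bases removed (n = 460), 74.3% at 200 to 299 bases (n = 369), 44.4% at 800 to 899 bases (n = 223) and 38.9% at 900 to 999 bases (n = 159). In the bins between, it lay from 51.6 to 63.9%. The short end was higher for 41.2% and the parent end for 15.2% of members with 200 to 299 bases removed, and each was higher for 27.0% of members with 900 to 999 bases removed. Where a parent had several short ends and these reached a mean of 50 counts (268 of 346 parents), the most upstream end had the highest mean count for 181, the most downstream for 78 and an end between them for 9. The library kit did not keep the strand. The stretch between both ends overlapped a transcript on the other strand for 557 members (18.4%), whose reads there cannot be told from those of the parent end. The median share of the short end was 73.1% over the 421 of these that were tested and 53.2% over the 1948 others. It was 52.8% where the parent carries the symbol itself (n = 585) and 58.1% elsewhere (n = 1784). Members named below with overlap on the other strand include Hpca, Fbxw7, Hsp90aa1, Fkbp3, Gng7/Lmnb2/Timm13, Fnbp1/RGD1305178, STRG.29937.5.1, STRG.41946.4.2 and STRG.41946.7.1.

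Short ends with a symbol and the most counts are described next. Snap25, a SNARE protein of synaptic vesicle fusion, ended 126 bases early on chromosome 3. This end (STRG.14487.1.1) had 408, 903 and 838 CPM in SHR replicates 1 to 3 and 1026, 1225 and 951 CPM in BNLx replicates 1 to 3. Its parent end had 326, 247 and 382 CPM in SHR and 831, 1012 and 226 CPM in BNLx. The short end was the larger in all 6 libraries, with the smallest margins in SHR replicate 1 and BNLx replicates 1 and 2, and the pair missed the threshold (log2 0.99, standard error 0.38, adjusted p = 0.0583 from edgeR). Cst3, which encodes the protease inhibitor cystatin C, ended 106 bases early (STRG.14717.1.1) with 647, 393 and 457 CPM in SHR and 419, 291 and 481 CPM in BNLx. The parent end of Cst3 had 659, 324 and 352 CPM in SHR and 816, 624 and 629 CPM in BNLx. Its short share was 49.5, 54.8 and 56.5% in SHR and 33.9, 31.8 and 43.3% in BNLx, with no overlap between the strains, and the end usage did not pass in edgeR (adjusted p = 1) or in limma (adjusted p = 0.732).

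A further 5 abundant short ends held most of the counts of their pair in every library. Ywhaq, a 14-3-3 adaptor protein (236 bases removed), had a short share of 85.7 ± 2.97% (SD, n = 6). Camkv, a kinase-like protein of synaptic vesicles (581 bases), was at 76.4 ± 4.88%, Ncs1, a neuronal calcium sensor (478 bases), at 95.3 ± 3.52%, and Cep170b, a centrosomal protein (342 bases), at 95.5 ± 1.45% (SD, n = 6 each). Hpca encodes hippocalcin, a calcium sensor of neurons. Its short end (267 bases) had 400, 243 and 287 CPM in SHR and 459, 446 and 88.3 CPM in BNLx, with BNLx replicate 3 far below the rest, and its parent end was at 0 in every library. The short end was higher in all 5 of these genes (adjusted p from 0.000571 for Cep170b to 0.0213 for Hpca, edgeR).

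Members of the gene lists are given as counts, to be read beside the 36.3% of all aptardi pairs with the aptardi end higher and the 25.8% with the parent end higher. With between 1 and 32 tested members a list, no list was tested against that background. The list of glutamate and GABA receptors and their partners held 9 members of 5 genes, all tested, with the short end higher for 5 and the parent end for 3. Gria2, an AMPA receptor subunit (STRG.9878.1.1, 854 bases removed), had a short share of 94.4 ± 1.16% in SHR and 89.7 ± 3.43% in BNLx (SD, n = 3 each; log2 3.63 for short over parent over all libraries, standard error 0.35, adjusted p = 0.000952 from edgeR). Glrb (STRG.9887.1.1, 734 bases), which encodes a glycine receptor subunit that binds gephyrin, had a share of 83.4, 87.8 and 89.1% in SHR, all above the 75.3, 75.1 and 75.8% in BNLx. Its parent end averaged 21.8 ± 2.01 CPM in SHR and 56.1 ± 4.44 CPM in BNLx (adjusted p = 0.0332 from edgeR), and its short end 146 ± 23.4 CPM in SHR and 172 ± 10.3 CPM in BNLx (SD, n = 3 each). The difference in end usage did not pass (adjusted p = 1 from edgeR and 0.701 from limma). Gphn, the scaffold gephyrin of inhibitory synapses (STRG.25135.2.1, 595 bases), was a counterpart: 46 counts on the short end in SHR replicate 2 and 0 in the other libraries, against 524 to 2903 counts on the parent end. The list of synaptic vesicle release held 13 members of 6 genes, with the short end higher for 3 and the parent end for 4. Snap91, a clathrin adaptor of presynaptic endings, and Stx12, an endosomal syntaxin, had short shares of 3.44 ± 4.13% and 4.26 ± 5.69% (SD, n = 6 each), and the parent end was higher for both (adjusted p = 0.0222 and 0.0301 from edgeR). Stx12 no longer passed without BNLx replicate 2 (adjusted p = 0.0656 from edgeR) or BNLx replicate 3 (adjusted p = 0.0504 from edgeR). Of 3 members from voltage-gated ion channels, 2 were tested: Kcnh7, a potassium channel of the erg family, was at 0 counts on the short end in all libraries against 600 to 3898 on the parent end (adjusted p = 0.0219 from edgeR). The 4 transcripts that end at this Kcnh7 position summed to 42.9 ± 36.1 CPM in SHR and 31.8 ± 28.0 CPM in BNLx (SD, n = 3 each). The position itself was thus used in both strains. Kcnq5, which carries the M-type potassium current, was at 0 on the parent end and had 353 and 242 counts on the short end in SHR replicates 2 and 3 and 321 in BNLx replicate 1, with 0 in the other libraries (adjusted p = 0.0502 from edgeR).

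Of 23 tested members of kinases and phosphatases, the short end was higher for 9 and the parent end for 7. Prkacb, a catalytic subunit of protein kinase A (395 bases removed), Csnk1e, a casein kinase of the circadian clock (157 bases), and Ptprn2, a phosphatase-like protein of dense-core vesicles (477 bases), had short shares of 94.4 ± 2.72%, 94.2 ± 2.81% and 99.8 ± 0.377% (SD, n = 6 each). The short end was higher for all 3 (adjusted p = 0.000854, 0.00189 and 0.0032 from edgeR). The ubiquitin system had 19 tested members, 5 with the short end and 2 with the parent end higher. Usp20, a deubiquitinase (887 bases), had a short share of 83.7 ± 3.61% (SD, n = 6; adjusted p = 0.00157 from edgeR). Fbxo3 and Fbxw7, both substrate receptors of ubiquitin ligases, were opposite extremes. The parent end of Fbxo3 was at 0 counts in all libraries, with 481 to 2355 counts on its short end, and the short end of Fbxw7 was at 0, with 339 to 1558 counts on its parent end. In the list of vesicle and membrane traffic, 3 of 10 tested members had the parent end higher and the other 7 did not pass. Rab7a, a GTPase of late endosomes (579 bases), had 0 counts on the short end in all libraries, and its parent end had 93 ± 22.4 CPM in SHR and 244 ± 37.5 CPM in BNLx (SD, n = 3 each). Rab11a, a GTPase of recycling endosomes (886 bases), had a short share of 4.27 ± 6.09% (SD, n = 6; adjusted p = 0.0295 from edgeR), which no longer passed without BNLx replicate 1, BNLx replicate 2, SHR replicate 1 or SHR replicate 2 (adjusted p from 0.0516 to 0.0568, edgeR). Sec23a, a coat protein of vesicles that leave the endoplasmic reticulum (845 bases), had short shares of 32.6, 45.6 and 44.6% in SHR and 2.79, 10.6 and 37.1% in BNLx, which overlap. Its short end against its parent end over all libraries did not pass (adjusted p = 0.112 from edgeR). Cytoskeleton and motor genes had 16 tested members, 2 with the short end and 8 with the parent end higher. Among these 8, Stmn2, a tubulin-binding protein of growing axons, had 0 counts on its short end in all libraries against 344 ± 44.9 CPM on its parent end in SHR and 353 ± 22.2 CPM in BNLx (SD, n = 3 each). Tuba1a, an alpha tubulin (176 bases), had 824 counts on its short end in BNLx replicate 3, 37 in SHR replicate 2 and 0 elsewhere, and Map4, a microtubule-associated protein (704 bases), had a short share of 3.01 ± 3.86% (SD, n = 6). The 4 transcripts that end at this Map4 position summed to 24.9 ± 17.5 CPM in SHR and 13.8 ± 23.9 CPM in BNLx (SD, n = 3 each). Tuba1a shares its locus with the near-identical Tuba1b, so its counts are uncertain.

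**Figure D3:**
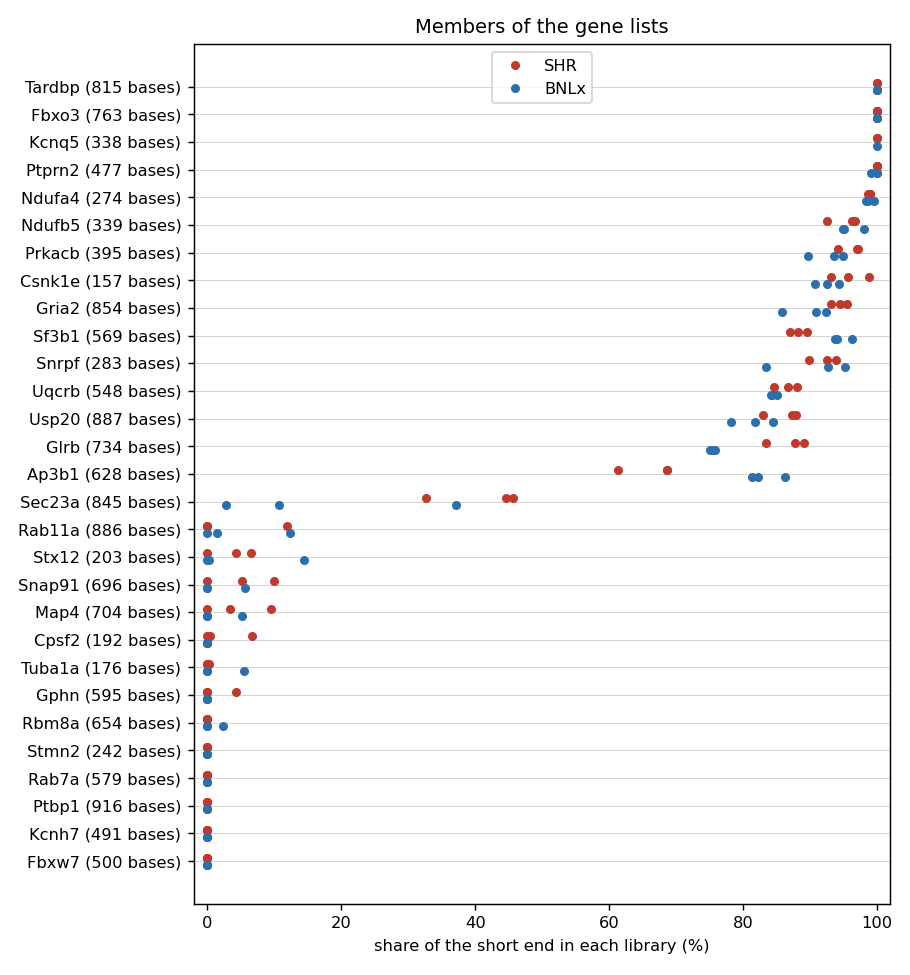
Share of the short end in each library (x axis, %) for the list members with the lowest p in the comparison of both ends (y axis, gene and bases removed), SHR above BNLx in each row. Ends such as Fbxw7, Rab7a and Stmn2 stay at 0% in all 6 libraries and Fbxo3 at 100%, while Sec23a lies between 2.79% in a BNLx library and 45.6% in an SHR library.

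Mitochondrial and splicing genes completed the lists. Of 13 tested members of the respiratory chain and mitochondrial import, 4 had the short end and 5 the parent end higher. Ndufa4 (274 bases removed) and Ndufb5 (339 bases), both of the respiratory chain, and Uqcrb, a subunit of complex III (548 bases), had short shares of 98.8 ± 0.382%, 95.6 ± 1.9% and 85.5 ± 1.57% (SD, n = 6 each). The short end was higher for each (adjusted p = 0.000571, 0.000725 and 0.00104 from edgeR). Of 32 tested members of splicing factors, 10 had the short end and 7 the parent end higher. Snrpf, a core protein of spliceosomal snRNPs (283 bases), had a short share of 91.3 ± 4.23% (SD, n = 6; adjusted p = 0.00231 from edgeR), whereas Rbm8a, a component of the exon junction complex (654 bases), had 3 counts on the short end in BNLx replicate 3, 0 elsewhere and 107 to 429 on its parent end. Among genes that act on 3′-ends themselves, the cleavage and polyadenylation factor Cpsf2 had a short end 192 bases upstream with 5 and 26 counts in SHR replicates 1 and 3 and 0 elsewhere, and the parent end, itself at 0 in BNLx replicate 3, was higher (adjusted p = 0.0156 from edgeR). The 2 transcripts that end at this Cpsf2 position summed to 5.34 ± 4.67 CPM in SHR and 4.03 ± 6.98 CPM in BNLx (SD, n = 3 each). Of the RNA-binding regulators, 2 of 5 tested members had the short and 2 the parent end higher. Ptbp1, a repressor of neuronal exons (916 bases), was at 0 on the short end in every library, and Tardbp, which encodes TDP-43 (815 bases), at 0 on the parent end in every library. Without both unlike libraries, 24 of the 39 called members that the naming rule chose no longer passed, with adjusted p from 0.0534 to 0.114 (edgeR).

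Sf3b1, Ptn and Ap3b1 were examples in the study, where DESeq2 called the original transcript between strains at a p of 0.001 or less. In edgeR, none of the parent ends of the members below passed that threshold (unadjusted p from 0.00587 for STRG.34429.2 to 0.133 for STRG.16835.1). EdgeR called fewer of all isoforms at that threshold (0.476% higher and 0.526% lower in SHR) than DESeq2 (3.6%). Of the short ends below, STRG.16835.2.1 of Ptn passed in DESeq2, higher in SHR (log2 0.52, unadjusted p = 0.000127). It did not pass in edgeR (unadjusted p = 0.00885). These genes also show how transcripts of a gene can share a short end and differ in its use. Sf3b1, a core splicing factor, had 3 parents that share a short end on chromosome 9 (61595189 in rn6), 569 bases upstream of their end at 61594620. Its short share was 88.2 ± 1.28% in SHR and 94.7 ± 1.39% in BNLx for STRG.34429.2.1 (SD, n = 3 each). For STRG.34429.3.1 it was 77.0 ± 1.15% in SHR and 88.9 ± 4.15% in BNLx, and for STRG.34429.4.1 it was 77.4 ± 3.02% in SHR and 87.9 ± 3.32% in BNLx (SD, n = 3 each). All 3 were lower in SHR without overlap, and none passed for end usage (adjusted p = 1 each from edgeR, from 0.667 to 0.732 from limma). Ptn, a growth factor of the developing brain, had 2 parents with a shared short end 492 bases upstream. In STRG.16835.1.1 the short share was 7.51 ± 2.68% in SHR and 16.1 ± 3.26% in BNLx, and in STRG.16835.2.1 it was 77.3 ± 9.51% in SHR and 41.7 ± 23.3% in BNLx (SD, n = 3 each). Summed over all transcripts of the locus that end there, the site had 70.1 ± 6.15 CPM in SHR and 66.7 ± 5.59 CPM in BNLx (SD, n = 3 each). The parent end was higher for STRG.16835.1.1 (adjusted p = 0.00244 from edgeR), and STRG.16835.2.1 did not pass (adjusted p = 0.389 from edgeR). Ap3b1, a subunit of the AP-3 adaptor that sorts vesicle proteins, had 3 parents with a shared short end 628 bases upstream. The short share was 67.5 ± 4.96%, 62.6 ± 5.3% and 66.2 ± 4.16% in SHR for STRG.7285.1.1, STRG.7285.2.1 and STRG.7285.4.1, and 91.9 ± 5.37%, 77.7 ± 2.93% and 83.3 ± 2.68% in BNLx (SD, n = 3 each). Again the strains did not overlap, and end usage did not pass (adjusted p from 0.986 to 1 in edgeR and from 0.397 to 0.736 in limma). Among all pairs, 4.76% had every SHR library below every BNLx library. Sf3b1 and Ap3b1 were examples of strain differences in these same libraries, and their members share a short end. The lack of overlap is therefore no independent support. Short over parent passed for all 3 Ap3b1 members (adjusted p = 0.0277, 0.0369 and 0.0249 from edgeR). STRG.7285.2.1 lost its call without any single library (adjusted p from 0.0521 to 0.0861, edgeR), STRG.7285.1.1 without any BNLx library (from 0.0541 to 0.0591) and STRG.7285.4.1 without BNLx replicate 1 or 3 (0.0588 and 0.0516).

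Across members, the level of short end use separated libraries more than strains. The median share of the short end over the 2369 tested members was 56.2, 64.5 and 64.2% in SHR replicates 1 to 3 and 52.9, 48.6 and 60.1% in BNLx replicates 1 to 3. SHR replicate 1 thus lay inside the BNLx range and BNLx replicate 3 above SHR replicate 1. The mean of these medians was 61.6 ± 4.7% in SHR and 53.9 ± 5.83% in BNLx (SD, n = 3 each; exact permutation test, two-sided, p = 0.2, where 3 against 3 libraries cannot go below 0.1). Without both unlike libraries, the difference of 7.79 percentage points was 13.6. The libraries left out have the medians nearest the other strain, so the difference had to widen. The same 3 libraries, SHR replicates 2 and 3 and BNLx replicate 3, also had the highest share of the upstream end where aptardi had moved the end downstream: 8.91, 34.8 and 34.7% in SHR and 4.55, 0.897 and 26.3% in BNLx replicates 1 to 3. They were also the highest for ends 1000 or more bases upstream, with 49.4, 55.9 and 55.2% in SHR and 50.2, 45.8 and 52.0% in BNLx. The neuron and oligodendrocyte marker sums given above did not follow this order of libraries, and their part in it was not tested. The mean transcript length weighted by counts was 4164, 4820 and 4696 bases in SHR and 4209, 4385 and 4451 bases in BNLx, and was likewise highest in these 3 libraries. Libraries were spread over 3 lanes, and which library ran in which lane is not given, so a lane effect on this order was not tested.

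**Figure D4:**
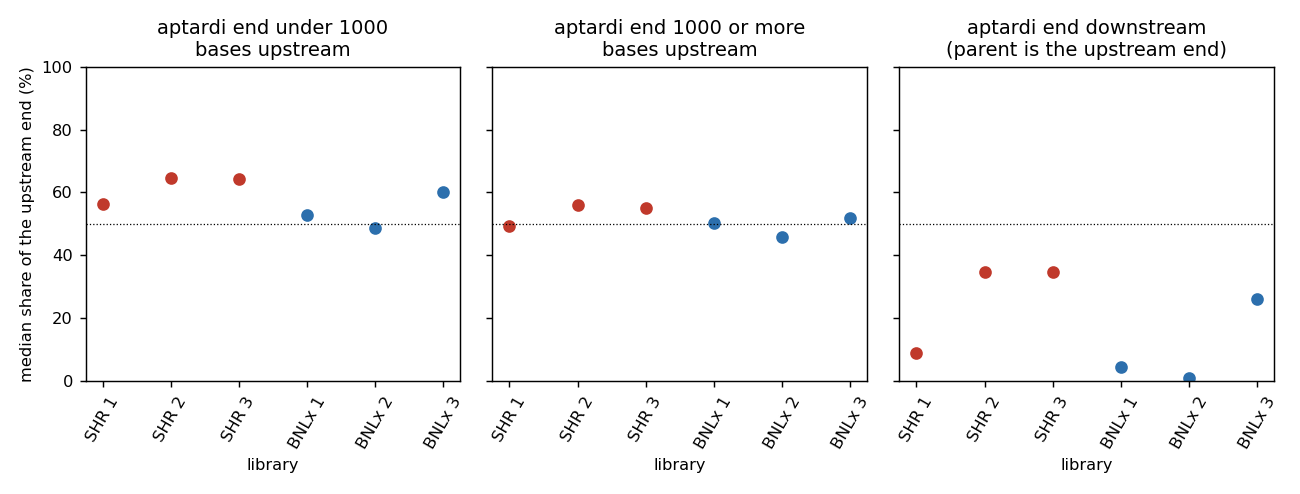
Median share of the upstream end in the counts of both ends (y axis, %) in each library (x axis), for short ends (left), aptardi ends 1000 or more bases upstream (middle) and downstream aptardi ends, where the parent is the upstream end (right). In each panel SHR replicates 2 and 3 and BNLx replicate 3 are the highest 3 libraries.

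No short end was called between strains in its use relative to the parent end by the strain-by-end term of edgeR (0 of 2369 at an adjusted p of 0.05, and 0.0% of all 9227 pairs), and 101 had an unadjusted p under 0.05. In simulated counts this test called 2% of 50 pairs with a 2-fold change in end usage and 34% of 50 with a 64-fold change. The absence of calls therefore does not show equal usage. Both ends of a simulated pair started equal, while many members lie near an extreme of the share. The simulated spread came from a fit without the strain-by-end term. Recovery in the real pairs may therefore differ from these rates. On log2 ratios of both ends, limma called 18 members (0.76%), against 0.672% of all pairs, 14 with a higher and 4 with a lower ratio in SHR. For 6 of the 18 (3 higher and 3 lower), both ends were at 0 in every library of a strain, so that no share exists there and the ratio says only that the transcript was present in the other strain. The other 12, of which 11 had the higher ratio in SHR, are 0.507% of the members tested, against 0.499% of all pairs counted in the same way. The share of the short end was above every BNLx library in every SHR library for 177 of 2151 members (8.23%), against 5.49% of all pairs, and below for 72 (3.35%), against 4.76%. Among those limma called, Hsp90aa1, which encodes the inducible cytosolic HSP90 chaperone, had the most counts. Its short end (STRG.25865.1.1), 426 bases upstream on chromosome 6 (135107697 against 135107271 in rn6, minus strand), had 6673, 7133 and 8275 counts in SHR replicates 1 to 3 and 0 in every BNLx library after rounding. In CPM these were 159, 340 and 380 in SHR, at least 1482-fold higher than 3 counts per BNLx library. The parent end had 698, 453 and 536 CPM in SHR and 1263, 1316 and 1214 CPM in BNLx. The short share of Hsp90aa1 in SHR was lowest in replicate 1 (18.6%, against 42.8 and 41.5%). The log2 ratio passed in limma (adjusted p = 0.00642) and not in edgeR (adjusted p = 0.362). The short isoform itself was higher in SHR (edgeR, adjusted p = 0.0321), and both ends together had a log2 fold change of -0.56. The stretch between both ends overlaps a transcript on the other strand.

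The next 4 genes were chosen among the limma calls after their values were seen, all with the higher ratio in SHR. STRG.3718.1.1, without a symbol, was the call with counts in both strains and a lower ratio in SHR. Its short share was 57.5, 50.7 and 53.0% in SHR and 95.3, 95.8 and 97.2% in BNLx (adjusted p = 0.0365 from limma, 0.362 from edgeR). In Ube3c, a ubiquitin ligase (STRG.15838.1.1, 170 bases removed), the parent end was at 0 in every SHR library and at 12.7, 9.27 and 2.74 CPM in BNLx replicates 1 to 3, with a limma adjusted p of 0.0229 and an edgeR adjusted p of 0.626. Actr10, a dynactin subunit (STRG.24931.1.1, 119 bases), had its short end at 43.5 ± 6.9 CPM in SHR and 42.7 ± 3.51 CPM in BNLx (SD, n = 3 each), and a parent end that rounds to 0 counts in every SHR library and reached 211, 24 and 147 counts in BNLx (adjusted p = 0.0265 from limma, 0.605 from edgeR). Fkbp3, a prolyl isomerase (STRG.24817.1.1, 263 bases), likewise had 0 counts on the parent end in SHR and 69, 9 and 30 counts in BNLx, with at least 97.3% of its counts on the short end in every library (adjusted p = 0.0292 from limma, 0.585 from edgeR). The stretch between both Fkbp3 ends overlaps a transcript on the other strand, whose reads there cannot be told from those of the parent end. In Topors, a ubiquitin and SUMO ligase (STRG.20183.3.1, 299 bases), the short end had 90, 142 and 157 counts in SHR and 0 in BNLx, at least 27.2-fold higher than 3 counts per library (adjusted p = 0.0399 from limma, 0.776 from edgeR). The short share was higher in every SHR library than in every BNLx library in each of these 4 genes, against 5.49% of all pairs. Their selection from limma calls with a higher ratio in SHR favoured this, so it adds no support.

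As isoforms between strains, 26 of 1802 short ends past the filter were called, 15 higher and 11 lower in SHR (edgeR, unadjusted p of 0.001 or less, the threshold used in the study). These are 0.832% and 0.61% of those tested, against 0.476% higher and 0.526% lower among all 32348 isoforms. At an adjusted p of 0.05 or less, 17 passed. DESeq2 called 89 (4.94%), among them all 26, with 54 higher and 35 lower in SHR, against 3.6% of all isoforms at the same threshold (1.79% higher and 1.82% lower). The count was 17 without BNLx replicate 1, 17 without SHR replicate 3, 47 without BNLx replicate 3, and 132 without both unlike libraries (112 higher in SHR), a fit that called 2.92% of all isoforms (1.9% higher and 1.02% lower). Of the 26, 13 were called in each of the 6 fits without 1 library and 3 in none of them. For 17 of the 26, the sum over both the parent end and the aptardi ends was called in the same direction, and for 9 it was not. This sum contains the short end itself. Where the parent end was at 0 in every library, as for Ppm1l, the sum holds aptardi ends only and is no separate observation. The short end was at 0 in every library of the other strain for 17, and the parent end was at 0 in all 6 libraries for 7. The removed stretch was from 117 to 924 bases long.

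An exchange between transcripts that share a short end was measured in Slc6a15, a sodium-coupled amino acid transporter. STRG.27461.1.1 had 45.2, 52.5 and 55.4 CPM in SHR and 0 in every BNLx library, at least 258-fold higher than 3 counts per library (adjusted p = 0.0125 from edgeR). STRG.27461.3.1 had 5.83, 4.04 and 3.98 CPM in SHR and 49.6, 46.4 and 44.0 CPM in BNLx (log2 -3.33, standard error 0.22, adjusted p = 0.0125 from edgeR). Both end at 45381778 on chromosome 7 (rn6), 451 bases upstream of the parent end. Over the 3 transcripts that end there, the Slc6a15 site had 56 ± 3.64 CPM in SHR and 46.7 ± 2.83 CPM in BNLx (SD, n = 3 each). The locus that holds Gng7 (a G protein subunit), Lmnb2 (a lamin) and Timm13 (a chaperone of mitochondrial import) showed the same on a short end 181 bases upstream. STRG.26511.6.1 had 20.8, 6.12 and 17.6 CPM in SHR and 0 in BNLx, and STRG.26511.7.1 had 0 in SHR and 16.2, 16.2 and 15.6 CPM in BNLx. Their adjusted p was 0.0771 and 0.0146 (edgeR), and the 4 transcripts that end there summed to 47.4 ± 14.4 CPM in SHR and 56.2 ± 12.7 CPM in BNLx (SD, n = 3 each). STRG.26511.6.1 was lost without each library except SHR replicate 2 (adjusted p from 0.0893 to 0.339, edgeR). In all, 6 of the 26 called short ends share their position with a called short end of the opposite direction.

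**Figure D5:**
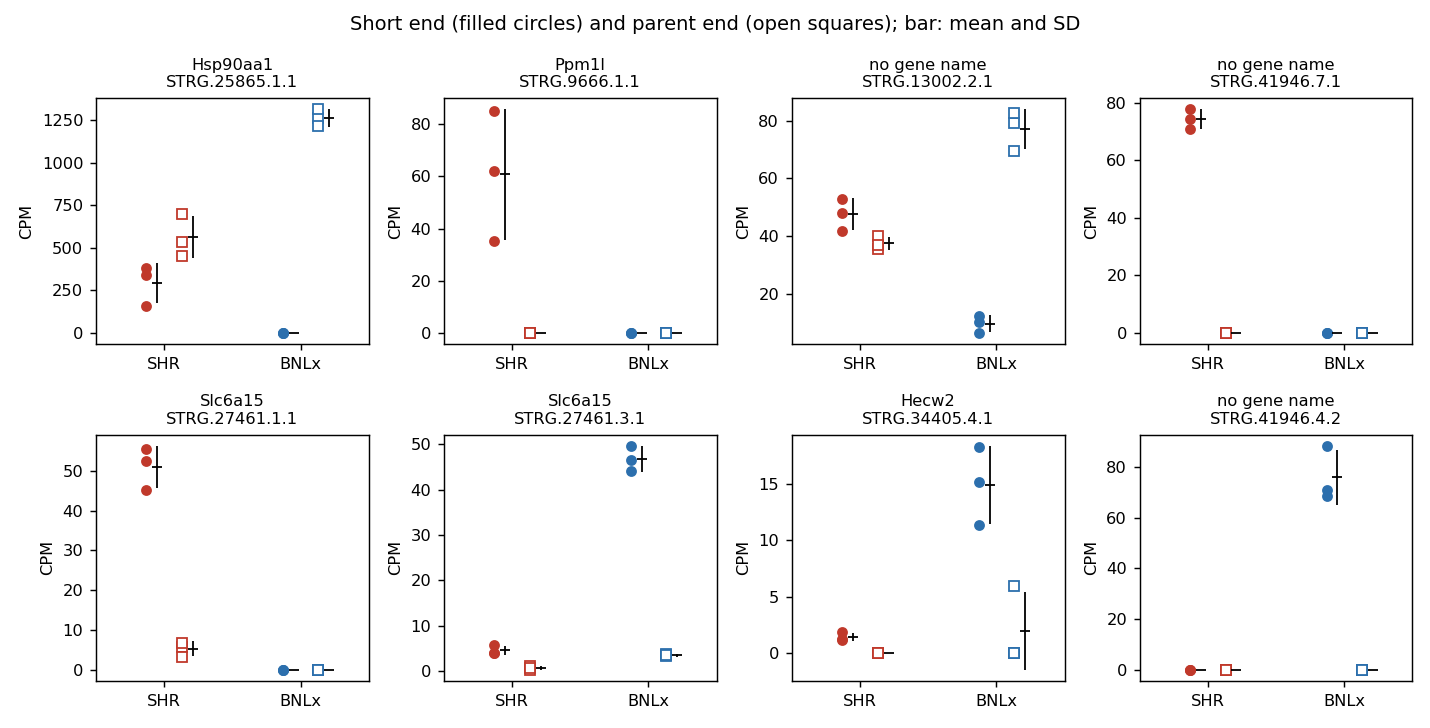
CPM (y axis) of the short end (filled circles) and its parent end (open squares) in SHR and BNLx, 1 point per library with the mean and SD (n = 3), for 8 short ends called between strains. Hsp90aa1 and STRG.13002.2.1 have more on the short end and less on the parent end in SHR, while the pairs of Slc6a15 and of locus STRG.41946 show short ends of which each is high in only 1 of the strains.

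Another 4 called members come from loci that the annotation pairs with no gene name, and were chosen after their values were seen. STRG.13002.2.1 on chromosome 3, 349 bases upstream, had 41.9, 48.0 and 53.1 CPM in SHR and 10.5, 6.57 and 12.4 CPM in BNLx (edgeR, log2 2.28 with a standard error of 0.28, adjusted p = 0.0451). The parent end of STRG.13002.2.1 had 37.6 ± 2.23 CPM in SHR and 77.1 ± 6.91 CPM in BNLx (SD, n = 3 each), and the sum over both had a log2 fold change of -0.03. The call was lost without BNLx replicate 1, SHR replicate 2 or SHR replicate 3 (adjusted p from 0.177 to 0.195, edgeR). In locus STRG.41946 on chromosome 12, short ends at adjacent aptardi bins of 100 bases were exchanged. STRG.41946.7.1, 924 bases upstream, had 74.5, 70.9 and 77.8 CPM in SHR and 0 in every BNLx library, at least 376-fold higher than 3 counts per library (adjusted p = 0.00882 from edgeR). STRG.41946.4.2, 824 bases upstream, had 0 in every SHR library and 68.5, 88.3 and 70.9 CPM in BNLx, or at least 647-fold less in SHR by the same floor (edgeR, adjusted p = 0.012). Over all transcripts that end there, the upstream site had 80.1 ± 3.03 CPM in SHR and 0 in BNLx, and the downstream site 0 in SHR and 89.5 ± 7.25 CPM in BNLx (SD, n = 3 each). The parent end at 36640143 was at 0 in all 6 libraries for both. The locus as a whole did not pass (log2 -0.16, adjusted p = 0.758 from edgeR). STRG.29937.5.1 on chromosome 8, 525 bases upstream, was the most abundant of the 26, with 1161 ± 116 CPM in SHR and 2666 ± 319 CPM in BNLx (SD, n = 3 each). By edgeR this was a log2 fold change of -1.20 (adjusted p = 0.0477). Its sum over both ends was lower in SHR too (log2 -1.31), and its call was lost without BNLx replicate 1, BNLx replicate 2, SHR replicate 2 or SHR replicate 3 (adjusted p from 0.175 to 0.217, edgeR).

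The remaining named calls were fewer in counts. Ppm1l, a protein phosphatase of the endoplasmic reticulum (129 bases removed), had 35.2, 61.9 and 85.1 CPM on its short end in SHR and 0 in BNLx, at least 307-fold higher than 3 counts per library (adjusted p = 0.0356 from edgeR). Its parent end was at 0 in all 6 libraries, the locus total had a log2 fold change of -0.02, and the call was lost without SHR replicate 2 (adjusted p = 0.187 from edgeR). Hecw2, a ubiquitin ligase (197 bases), had 1.89, 1.24 and 1.2 CPM in SHR and 15.2, 11.4 and 18.2 CPM in BNLx (log2 -3.37, standard error 0.33, adjusted p = 0.0293 from edgeR). Over the 4 transcripts that end at the Hecw2 site there were 85.9 ± 26.9 CPM in SHR and 95.3 ± 6.28 CPM in BNLx (SD, n = 3 each). Ptpn3, a tyrosine phosphatase (786 bases), had 9.58, 34.4 and 27.4 CPM in SHR and 0 in BNLx, at least 120-fold higher. Over the 3 transcripts that end at the Ptpn3 site there were 11.3, 35.3 and 29.2 CPM in SHR and 3.87, 2.9 and 51 CPM in BNLx, with the highest value in BNLx replicate 3. Epb41l4b, a band 4.1 protein (714 bases), had 175, 56 and 88 counts in SHR and 0 in BNLx, at least 18.4-fold higher. The 6 transcripts that end at the Epb41l4b site were at 20 ± 14.3 CPM in SHR (SD, n = 3) and at 0 in every BNLx library. Its parent end had 0 in SHR and 419, 59 and 0 counts in BNLx. Dut, which removes dUTP (669 bases), had 0 in SHR and 70, 69 and 92 counts in BNLx, at least 44.1-fold lower in SHR. The 5 transcripts that end at the Dut site summed to 7.8 ± 4.04 CPM in SHR and 6.42 ± 2.54 CPM in BNLx (SD, n = 3 each), so the end itself was present in both strains. Ercc8, a factor of transcription-coupled DNA repair (542 bases), had 6.96 ± 0.827 CPM in SHR and 1.84 ± 0.172 CPM in BNLx, and the 6 transcripts that end at its site summed to 9.09 ± 0.113 CPM in SHR and 7.65 ± 5.82 CPM in BNLx (SD, n = 3 each). The locus shared by Fnbp1, a membrane-bending protein, and RGD1305178 (529 bases) had 39.0, 36.9 and 23.9 CPM in SHR and 0.191, 0.938 and 0.0702 CPM in BNLx, and its site over 2 transcripts had 105 ± 16.2 CPM in SHR and 98.4 ± 53.3 CPM in BNLx (SD, n = 3 each). The adjusted p of these last 5 was from 0.0632 to 0.0995 (edgeR). Ercc8 and Dut lost their call without any single library (adjusted p from 0.0994 to 0.332, edgeR), and Dut also with the size factors of DESeq2 in edgeR. Ptpn3 kept it only without SHR replicate 1, Epb41l4b only without BNLx replicate 2 or 3, and Fnbp1 with RGD1305178 likewise only without BNLx replicate 2 or 3.

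Parent ends were tested in the same way. Of 1329 parents past the filter, 15 were called, 5 higher (0.376%) and 10 lower (0.752%) in SHR, against the same 0.476% and 0.526% of all isoforms. The median log2 fold change was 0.15 for short ends, -0.17 for parent ends and 0.02 for all isoforms. Without BNLx replicate 3 the parent count was 26, 7 higher and 19 lower. Sums over the ends of a parent were called for 24 of 2133 (1.13%), against 1.14% of all original transcripts. At 0 in every BNLx library and 10 or more counts in every SHR library were 22 of 2730 short ends with any count (0.806%), against 0.406% of all isoforms, and the converse held for 7 (0.256%), against 0.17%. These cutoffs are counts not scaled to depth. Libraries held 21745968 to 41333079 counts in SHR and 11747048 to 32826625 in BNLx, so the numbers for both directions are not directly comparable. Of the genes that act on 3′-end choice, 26 were tested by locus (10 of 28 listed processing factors and 16 of 36 listed RNA-binding regulators). The other listed genes were not tested by locus. None differed at an adjusted p of 0.05 or less in edgeR or DESeq2, against 1.02% of all 14471 loci, and 0 had an unadjusted p under 0.05 in edgeR. Without both unlike libraries, 5 of the 26 passed in edgeR, in a fit that called 28.8% of all loci.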

How the data were processed

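Male rat brain polyA RNA was sequenced as unstranded 100 base paired reads (TruSeq kit, from 1 µg). The instrument is a HiSeq2000 in the labels and a HiSeq2500 in the methods. The authors aligned reads to strain genomes made from rn6, assembled the original transcriptome with StringTie 1.3.5, added ends with aptardi 1.0.0, which writes the last base of a 100 base bin, and quantified with RSEM. The deposited expected counts per isoform and gene are estimates without normalization, and the deposited TPM values were scaled within each library by the authors' RSEM run. The deposited series table holds 32348 of the isoforms with the same values.

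After rounding, expected counts entered the quasi-likelihood test of edgeR 4.0.16 (two-sided, TMM scaling, R 4.3.3) over all isoforms, loci, sums of ends or aptardi pairs with at least 50 counts in 2 of 3 replicates of at least 1 strain. Pairs had a term for each library, and p was adjusted by Benjamini-Hochberg over all pairs. Log2 ratios with 0.5 added were fitted with limma 3.58.1, and DESeq2 1.42.0 was an alternative. Folds against a strain at 0 use 3 counts per library and cover counting error only. Scripts were tested on simulated data. Each library is labelled as a separate rat.

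Members and gene lists were chosen with earlier results of these data known. Named were up to 8 members per direction with the lowest p between strains (end usage, adjusted p of 0.05; isoform, unadjusted p of 0.001; a symbol, 1 per locus), the 8 most abundant with a symbol, Sf3b1, Ptn and Ap3b1, and up to 3 per list with the lowest p between both ends. Same-numbered libraries had correlated deviations of 0.136, -0.034 and 0.0856, so numbers were not taken as pairs. Results for 2 members chosen by this rule, and the list of genes with well-known alternative ends, are not reported here. No rn6 genome was used here, and sequences at the ends were not analysed.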

Additional observations from a re-analysis of the deposited data

How the results depend on the processing

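Among the named members, the comparisons between strains kept their side of the threshold and their direction in 204 of the alternative fits, were lost in 59 and gained in 1. End usage of the named members kept its side in 51 and gained calls in 9, all with limma. Those of both ends did so in 438, were lost in 41 and gained in 5. None changed sign. The count of members with different ends (1368) was 211 without both unlike libraries (SHR replicate 1, BNLx replicate 3) (176 with the short end higher) and from 1023 to 1144 on leaving out 1 library. End usage between strains had 0 calls in edgeR in all settings, and 18, 21 and 13 in limma on counts, on TPM and with 5 added. For short ends between strains (26), the count was 89 with DESeq2, 132 without both libraries, 17 at an adjusted p of 0.05, and from 17 to 47 on leaving out 1 library. For parent ends (15) it was 66 with DESeq2, 60 without both and from 10 to 26 on leaving out 1 library, and for sums (24) it was 72, 56 and from 18 to 30. The genes that act on 3′-ends gave 5 calls without both and 0 otherwise. The strain difference in median share (7.79 points) was 13.6 without both, from 5.14 to 10.9 on leaving out 1 library, 6.79 in TPM, 7.13 with 10 counts required and 5.93 with 1 member per end. Both libraries left out have the medians nearest the other strain. The cause of these differences was not tested.

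The replicate number as a block left 3 short ends, 3 parents, 8 sums and 0 end usage calls (limma). The numbers share no source in the labels, and not every library correlated best with its own number.

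Shallow libraries limit what is seen: a member at 0 has fewer than about 3 counts there, the reads that separate both ends lie in 101 to 998 bases, and estimates divide reads among overlapping isoforms.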
